A study of Mus musculus with 18 samples.

Results

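Serpina6, Pnpla5, Adcy1, A4gnt and Gm30692 are 5 of the 32285 genes counted in the livers of offspring of frozen germline stem (GS) cells. The 5 were chosen from these same libraries, for their high counts in pup livers against those of the control mice and for the way the counts fell across replicate numbers 1 to 3 and 4 to 6. Their levels in pups against controls are therefore given as a description, without a test, and only the comparison of both pup groups with each other was tested. The 18 libraries fall into 3 groups of 6, each from the liver of one mouse that the labels give as B6D2F1 and wild-type. Space pups descended from GS cells, which are cultured spermatogonia with stem cell activity, stored frozen aboard the International Space Station for 6 months, and Ground pups from GS cells stored frozen on Earth for the same 6 months. BDF1 mice served as controls.

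The GS cells came from testes of DBA/2 pups aged 2 to 3 days. By the study's methods this line carries an EGFP transgene under an actin promoter, so pups may have inherited it, and the labels do not say which did. The BDF1 controls were born from natural mating. After thawing, the GS cells were placed in the testes of W mice, Kit mutants without sperm production of their own, and these males were mated with C57BL/6 females. Livers of the F1 pups were taken at 10 weeks of age. The age of the BDF1 mice is not given by the labels, nor is the sex or reproductive state of any animal, although both sexes were used in the study. Few recipients were fertile, so pups of a group may share a father, and the labels do not name the father or the litter. P-values measure the spread between these animals. Libraries numbered 1 to 3 had 0 to 187 counts of Xist and 1822 to 2482 of 4 Y-linked genes, whereas those numbered 4 to 6 had 12218 to 21557 and 0 to 26. The replicate number therefore separates animals by sex chromosomes in every group, and values are given within both sets of numbers.

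Serpina6 encodes corticosteroid-binding globulin, the plasma protein that carries glucocorticoids. It is made by hepatocytes and secreted, and it belongs to the serpin family, although it has no protease to inhibit in this role. It binds most of the hormone in blood, so that only the unbound remainder is free to enter cells and to reach the glucocorticoid receptor. Pnpla5 encodes a lipase of the patatin-like phospholipase domain family that acts on neutral lipid. Adcy1 encodes a calcium- and calmodulin-stimulated adenylyl cyclase, which makes cyclic AMP and is best known from neurons. A4gnt encodes a glycosyltransferase that adds an alpha-1,4-linked N-acetylglucosamine to O-glycans, known from the gland mucins of the stomach. Gm30692 is annotated as a long intergenic noncoding RNA with no known function.

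The members lie on 5 chromosomes (mm10, GENCODE M21). Serpina6 spans chr12:103646630-103657212 on the minus strand with 6 exon blocks. Pnpla5 spans chr15:84112356-84123175 on the minus strand with 9, and Adcy1 chr11:7063489-7178506 on the plus strand with 22. A4gnt spans chr9:99612502-99622367 on the plus strand with 3 exon blocks, and Gm30692 chr8:24412179-24416937 on the plus strand with 5. None of the 5 overlaps another annotated gene. Of all 50-base windows of their annotated transcripts, 0% occurred in a transcript of another gene on either strand. Only exact matches to annotated transcripts were searched, so copies with scattered differences or outside the annotation were not examined.

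The starts of 2 transcripts are shown to identify what was counted: the first 150 coding bases of Serpina6, with the start codon in capitals, and the first 150 bases of the Gm30692 transcript.
Serpina6: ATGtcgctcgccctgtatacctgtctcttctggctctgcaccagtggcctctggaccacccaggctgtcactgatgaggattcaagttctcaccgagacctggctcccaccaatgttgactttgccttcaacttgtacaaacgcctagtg
Gm30692: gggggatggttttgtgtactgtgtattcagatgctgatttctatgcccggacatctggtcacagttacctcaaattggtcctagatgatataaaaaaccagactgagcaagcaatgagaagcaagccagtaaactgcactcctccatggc

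Promoters from 250 bases before to 50 after the transcription start were available for 3 of the 5 members (RefSeq, GRCm38.p6) and are shown because the members vary together across libraries, as described below. Capitals mark matches to 3 motifs, searched on both strands. The E box is CACGTG. The CCAAT box is CCAAT, which reads as ATTGG where it lies on the other strand. The GC box is GGGCGG, which then reads as CCGCCC. The windows are chr15:84123126-84123425 (minus strand) for Pnpla5, chr11:7063183-7063482 (plus strand) for Adcy1 and chr9:99612252-99612551 (plus strand) for A4gnt.
Pnpla5: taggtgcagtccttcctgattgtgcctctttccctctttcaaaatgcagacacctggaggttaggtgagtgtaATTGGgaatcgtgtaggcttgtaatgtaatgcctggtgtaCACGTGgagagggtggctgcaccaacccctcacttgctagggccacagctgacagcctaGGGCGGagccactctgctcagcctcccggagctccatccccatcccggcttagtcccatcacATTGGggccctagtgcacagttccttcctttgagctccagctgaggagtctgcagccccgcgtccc
Adcy1: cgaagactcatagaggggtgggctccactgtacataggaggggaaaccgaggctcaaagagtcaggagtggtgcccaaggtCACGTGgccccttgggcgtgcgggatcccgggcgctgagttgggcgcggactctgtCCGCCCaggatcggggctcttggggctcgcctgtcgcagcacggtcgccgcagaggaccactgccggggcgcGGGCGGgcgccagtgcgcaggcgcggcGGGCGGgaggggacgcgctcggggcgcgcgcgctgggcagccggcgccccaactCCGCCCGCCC
A4gnt: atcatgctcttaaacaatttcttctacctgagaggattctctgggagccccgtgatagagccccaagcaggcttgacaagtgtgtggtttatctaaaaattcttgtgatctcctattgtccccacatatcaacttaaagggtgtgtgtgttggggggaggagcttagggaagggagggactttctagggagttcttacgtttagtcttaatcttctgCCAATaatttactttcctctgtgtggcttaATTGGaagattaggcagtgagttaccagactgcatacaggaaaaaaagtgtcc

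The E box letters occurred in Pnpla5, beginning at base -137 from the start, and in Adcy1, at base -169, but not in this window of A4gnt. Of 32851 mouse promoters of the same length, 7.15% held that motif. CCAAT matched at 2 places in Pnpla5 and at 2 in A4gnt (37.41% of promoters), and GGGCGG once in Pnpla5 and 5 times in Adcy1, where 2 of the matches overlap (35.66% of promoters). Base composition set the 3 apart as well. The Adcy1 window had 74.0% G and C and 37 CpG dinucleotides, the Pnpla5 window 57.33% and 7, and the A4gnt window 43.67% and 2, against a median of 52.67% and 7 over all promoters. The TATA box letters TATAAA, held by 13.62% of promoters, were not in these 3 windows. Neither were the core letters of cyclic AMP elements (TGACG, 20.81% of promoters) and of glucocorticoid elements (AGAACA, 18.97%). The STAT element TTCNNNGAA (8.3% of promoters) was absent from them as well. No motif was present in all 3 promoters.

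Total counts per library ranged from 15407450 to 20562351. Levels are given as CPM, the usual measure of counts relative to the library total, after scaling by the trimmed mean of M-values (TMM). A count of 0 allows a level of up to 0.134 to 0.236 CPM, depending on the library (3 counts), and this limit and the intervals below cover counting error only. The hepatocyte markers Alb, Apoa1, Apob, Ttr, Cps1, Ass1, Pck1, Fgb and Serpina1c were counted in every group and summed to 70942 to 390357 CPM, so the labelled tissue is borne out by its defining markers. The libraries that stood apart for Serpina6 were Space replicate 4, Ground replicate 5 and Ground replicate 6, with TMM factors of 0.754, 0.762 and 0.705. Fitted changes of the members against controls are given with and without them. Correlations over 18 libraries and in numbers 4 to 6, and most fits of other genes, are given only with them. In bulk liver, a higher level may come from more cells of a type or from more RNA per cell, and these cannot be told apart.

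Serpina6 was at 199.9, 160, 144, 45519, 892 and 738 CPM in Space pups 1 to 6. In Ground pups it was at 157, 231, 118, 845, 44766 and 30906 CPM. In BDF1 mice it was at 146, 195, 173, 780, 793 and 998 CPM. All 9 libraries numbered 1 to 3 lay below all 9 numbered 4 to 6, and within numbers 1 to 3 the groups overlapped throughout. There the means were 168 ± 28.9 CPM in Space pups, 169 ± 57.1 in Ground pups and 171 ± 24.4 in BDF1 mice (SD, n = 3). In BDF1 mice numbers 4 to 6 averaged 857 ± 122 CPM (SD, n = 3), 5.00 times the level of numbers 1 to 3. Space pups 5 and 6 and Ground pup 4 had levels close to these controls: Space pup 6 lay below the lowest of them and the other 2 lay between their lowest and highest.

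The high mean of Serpina6 in pups came from the remaining 3 of 6 pups numbered 4 to 6. Space pup 4 was 45.6 times, Ground pup 5 44.9 times and Ground pup 6 31.0 times the highest BDF1 library. In raw counts, Serpina6 took 3.43% of Space library 4 (95% Wilson interval 3.42 to 3.44%), 3.41% of Ground library 5 (3.40 to 3.41%) and 2.18% of Ground library 6 (2.17 to 2.18%), against 0.107% in the BDF1 library with the highest level. By counts it was the 2nd, 2nd and 3rd most abundant of 32285 genes in these 3 livers. In the other 15 libraries its rank was between 108 and 1064. Group medians did not show this, at 469 CPM in Space pups, 538 in Ground pups and 488 in BDF1 mice.

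Pnpla5 was at 0.295, 0.125, 1.82, 27.9, 3.24 and 2.70 CPM in Space pups 1 to 6. Ground pups were at 0.0489, 0.263, 0, 5.19, 19.7 and 6.28 CPM. In BDF1 mice the whole group had 2 counts, 1 each in replicates 5 and 6, and the highest level was 0.0501 CPM. All Space pups lay above all BDF1 mice, whereas Ground pups 1 and 3, with 1 and 0 counts, overlapped them. All 6 pups numbered 4 to 6 exceeded all 6 pups numbered 1 to 3. Ratios to controls are of counts summed over libraries and divided by summed scaled totals. Against 2 counts in controls, this ratio was 306 for Space (95% counting interval 84.2 to 2531) and 279 for Ground pups (76.9 to 2314). Without the 3 libraries high in Serpina6 it was 100.3 (27.3 to 836) and 75.5 (20.3 to 633). Within numbers 1 to 3, where the controls had no count, pups were set against a floor of 3 counts over the control libraries. Space pups were at 15.5 times and Ground pups at 2.01 times that floor. The lower 95% counting limits of the ratios to controls were 12.1 and 1.18. Each value rested on a single library. In Space pups 34 of the 41 counts were in replicate 3, without which the ratio to the floor was 4.15. In Ground pups 5 of the 6 were in replicate 2, without which this ratio was 0.496 and no higher level was shown.

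Adcy1 was at 2.71, 2.13, 2.94, 41.6, 3.12 and 3.39 CPM in Space pups 1 to 6. It was at 1.08, 1.26, 0.632, 1.95, 32.4 and 19.9 CPM in Ground pups. In BDF1 mice it was at 1.13, 0.548, 0.575, 0.099, 0.268 and 0.10 CPM, so this member had counts in every control. Controls numbered 4 to 6 all lay below controls numbered 1 to 3, the opposite order from both pup groups. The ratio of pups to controls accordingly differed between the sets of numbers. Within numbers 4 to 6, against 10 counts in controls, it was 85.6 in Space (95% counting interval 46.2 to 179) and 109 in Ground pups (59.0 to 228). Within numbers 1 to 3 it was 3.40 (2.41 to 4.88) and 1.29 (0.861 to 1.95). The last interval includes 1, but these intervals hold counting error alone and not the spread between animals. Without the 3 libraries high in Serpina6, the ratio within numbers 4 to 6 was 20.4 in Space (10.7 to 43.6) and 12.2 in Ground pups (5.85 to 27.7), the latter from Ground replicate 4 alone. Every Space pup lay above every BDF1 mouse, while Ground pups 1 and 3 lay below BDF1 replicate 1.

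A4gnt was at 0.943, 0.188, 1.60, 9.03, 1.08 and 1.84 CPM in Space pups 1 to 6. It was at 0.147, 0.945, 0.369, 2.54, 5.32 and 3.73 CPM in Ground pups. BDF1 mice had 5 counts in all, 3 in replicate 4 (0.149 CPM) and 2 in replicate 6 (0.10 CPM). Space pups lay above all controls, and among Ground pups replicate 1 lay just under BDF1 replicate 4. The ratio of summed counts to controls was 52.7 in Space (95% counting interval 22.2 to 164) and 47.5 in Ground pups (20.02 to 148). With the 3 libraries high in Serpina6 left out it was 28.0 (11.6 to 88.1) and 22.8 (9.33 to 72.4). Within numbers 1 to 3 the controls had no count. Space pups were at 18.5 times and Ground pups at 9.37 times the level that 3 counts over the control libraries would give. The lower 95% counting limits of the ratios to controls were 14.5 and 7.13. Without Space replicate 3 and without Ground replicate 2 the ratios to 3 counts were 11.3 and 4.96.

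Gm30692 was at 0.648, 0.375, 1.82, 6.44, 0.660 and 0.747 CPM in Space pups 1 to 6. Ground pups were at 0.636, 0.578, 0.421, 0.413, 3.67 and 2.76 CPM. BDF1 mice had 3 counts in all, with a highest level of 0.0548 CPM. This was the only member of the 5 for which all 12 pups lay above all 6 controls. Unlike Pnpla5, it did not separate all pups numbered 4 to 6 from those numbered 1 to 3: Ground pup 4, at 0.413 CPM, was the lowest of the Ground group and Space pup 3 was above Space pups 5 and 6. The ratio of summed counts to controls was 64.4 in Space pups (95% counting interval 21.6 to 316) and 51.8 in Ground pups (17.4 to 255). Leaving out the same 3 libraries gave 35.3 (11.6 to 175) and 20.9 (6.64 to 106).

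**Figure D1:**
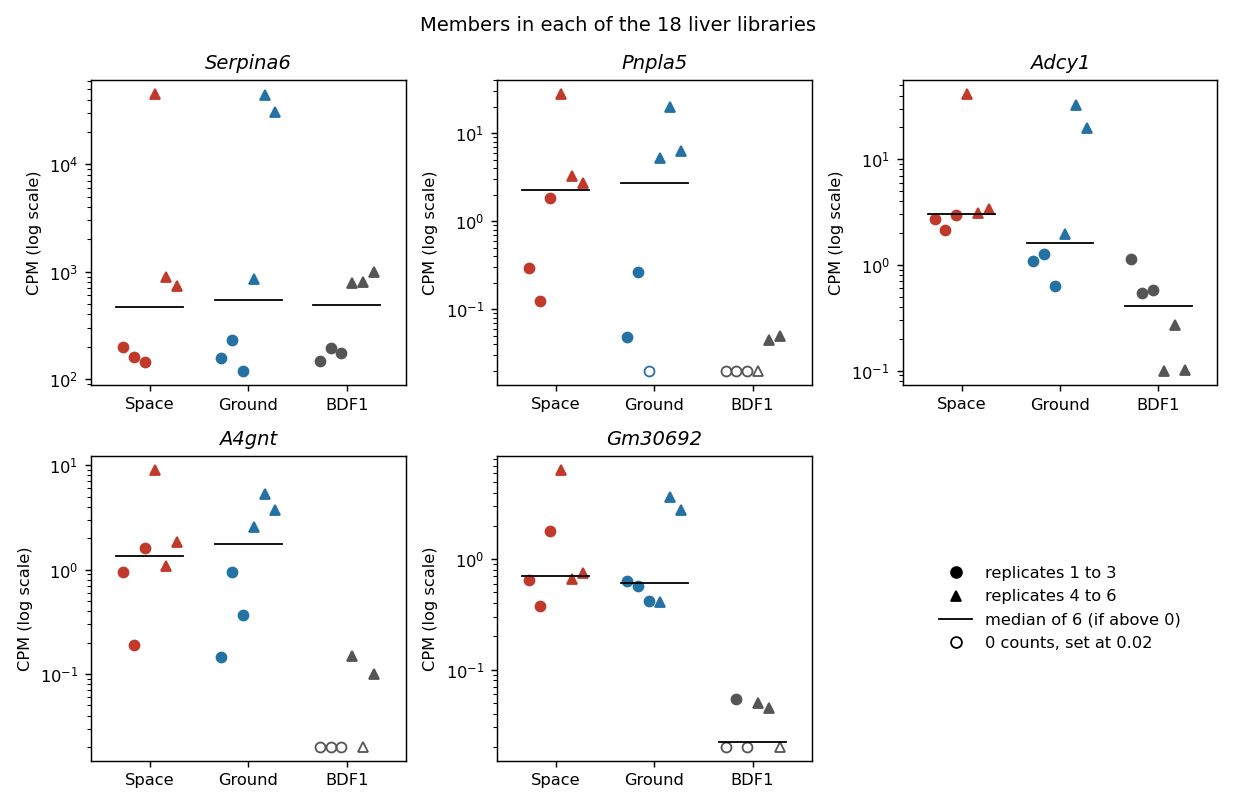
CPM of the 5 members (vertical axes, log scale) in each library of the Space, Ground and BDF1 groups. Circles are replicates 1 to 3, triangles replicates 4 to 6, lines medians of 6 and open symbols libraries with 0 counts, set at 0.02. Serpina6 lies at 118 to 231 CPM in all circles, whereas the other members are higher in most pups than in controls.

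On a per-length scale the members differed widely. Over the 12 pups the median level was 275 CPM per kb of exon for Serpina6, 1.04 for Pnpla5, 0.817 for Gm30692, 0.486 for A4gnt and 0.225 for Adcy1. In BDF1 mice the medians were 277, 0, 0.0279, 0 and 0.0326 CPM per kb. The neighbours in this order from Pnpla5 down overlapped in the pups. Serpina6 was the sole abundant transcript. Its median was nearly the same in pups and controls, whereas those of the other 4 members were higher in pups.

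Whether the place of freezing made a difference was asked by comparing both pup groups. Across 12847 genes tested, edgeR called none between Space and Ground pups (0% of genes at an adjusted p under 0.05), while 1186 had an unadjusted p under 0.05 and DESeq2 called 30. No member was called. The edgeR log2 change (Space over Ground) was -0.69 for Serpina6 (SE 1.53, adjusted p 0.931), with an interval of 2 SE on each side from -3.75 to 2.37. It was 0.19 for Pnpla5 (SE 1.10, edgeR adjusted p 0.977; interval -2.02 to 2.40) and -0.04 for Adcy1 (SE 0.95, adjusted p 0.994; interval -1.94 to 1.86). For A4gnt it was 0.17 (SE 0.78, edgeR adjusted p 0.971; interval -1.39 to 1.72) and for Gm30692 0.33 (SE 0.68, adjusted p 0.926; interval -1.04 to 1.70). These intervals are wide and each includes differences of more than 2-fold either way, so equal levels were not shown. Each of the 5 changes took the other sign when a single library was left out. Without Space replicate 4, Pnpla5, A4gnt and Gm30692 were at -1.66, -0.91 and -0.69, and without Ground replicate 5 Serpina6 and Adcy1 were at 0.30 and 0.92.

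Within numbers 1 to 3 Adcy1 was higher in all 3 Space pups (2.13 to 2.94 CPM) than in all 3 Ground pups (0.632 to 1.26 CPM), with a difference of 1.39 on the log2 scale (SE 0.34) that did not pass (edgeR adjusted p 0.145), where 0.0706% of genes were called higher and 0.0392% lower. Within numbers 4 to 6 its log2 change was -0.20 (SE 1.01, adjusted p 0.961). Whether these changes differ from each other was not tested. Space pup 3 was the highest of the 6 pups numbered 1 to 3 for Pnpla5, Adcy1, A4gnt and Gm30692, while it was the lowest Space pup for Serpina6.

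The fitted changes against BDF1 chose the members and describe their size only. edgeR called 488 of 12847 genes (3.8%) in Space and 489 (3.81%) in Ground pups, which share the same controls. The fitted log2 changes in Space and Ground pups were 3.95 and 4.64 for Serpina6, 7.98 and 7.80 for Pnpla5, 4.32 and 4.36 for Adcy1, 5.64 and 5.48 for A4gnt, and 5.79 and 5.46 for Gm30692. For Pnpla5, A4gnt and Gm30692 these rest on controls with 5 counts or fewer and depend on the prior count of the fit. Without the 3 libraries high in Serpina6, the change of Serpina6 was -0.26 (SE 0.69) in Space and -0.61 (SE 0.75) in Ground pups. That fit is unequal in replicate numbers wherever it is used. In numbers 4 to 6 it keeps 2 Space pups and 1 Ground pup against 3 BDF1 mice. The ratio of summed Serpina6 counts to controls was then 0.810 in Space and 0.613 in Ground pups over all numbers. Within numbers 4 to 6 it was 0.952 and 0.989, the latter from Ground replicate 4 alone. Leaving out Space replicate 4 alone brought Serpina6 in Space pups to -0.27. With all 3 left out the others stayed positive, at 6.16 and 5.87 for Pnpla5, 2.64 and 1.42 for Adcy1, 4.58 and 4.37 for A4gnt, and 4.78 and 4.05 for Gm30692. Within numbers 1 to 3 alone the change of Serpina6 was -0.03 (SE 0.22) in both pup groups, and that of Gm30692 was 5.35 and 4.53.

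**Figure D2:**
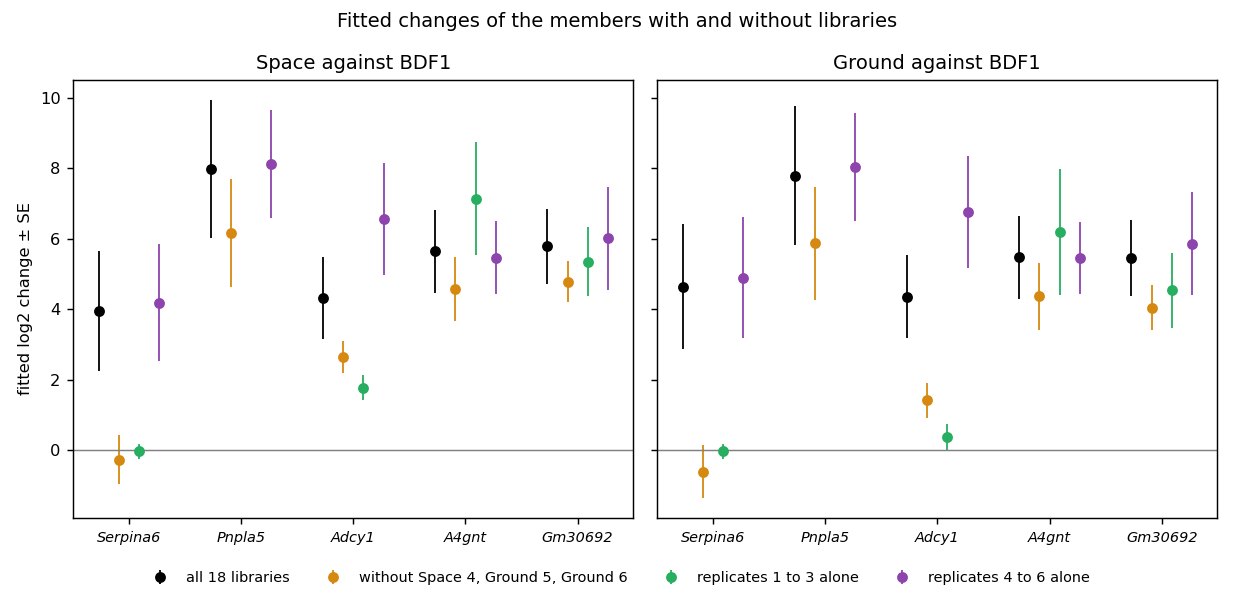
Fitted edgeR log2 change ± SE (vertical axis) of each member in Space pups (left) and Ground pups (right) against BDF1, in 4 fits shown by colour. Serpina6 is near 0 without Space replicate 4, Ground replicate 5 and Ground replicate 6 (-0.26 and -0.61) and in replicates 1 to 3 alone (-0.03), and Pnpla5 has no value in replicates 1 to 3 alone because it did not pass the count filter there.

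These genes were chosen from the same libraries as genes rising with Serpina6, so their likeness to it is a description and no support for that label. The likeness was seen in part of the libraries. The 3 livers with the most Serpina6 were also the 3 highest of all 18 for Pnpla5, Adcy1, A4gnt and Gm30692. Over 18 libraries, Pearson's r of log2 CPM with Serpina6 was 0.79 for Pnpla5, 0.71 for Adcy1, 0.69 for A4gnt and 0.64 for Gm30692, as a description of points that share the high libraries. These values ranked 402, 708, 824 and 1132 among 11724 genes, so many genes were closer to Serpina6 than any other member. Within the 9 libraries numbered 4 to 6 r was 0.72 to 0.86. Within the 9 numbered 1 to 3 it was 0.11 for Pnpla5, 0.09 for Adcy1, 0.10 for A4gnt and -0.06 for Gm30692. The other 4 members were closer to each other than to Serpina6, with pairwise r of 0.85 to 0.94 over 18 libraries, 0.94 to 0.99 in numbers 4 to 6 and 0.69 to 0.91 in numbers 1 to 3. In numbers 1 to 3 all Space pups lay above all controls for each of these 4. Ground pups did so for A4gnt and Gm30692 but not for Pnpla5 and Adcy1.

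**Figure D3:**
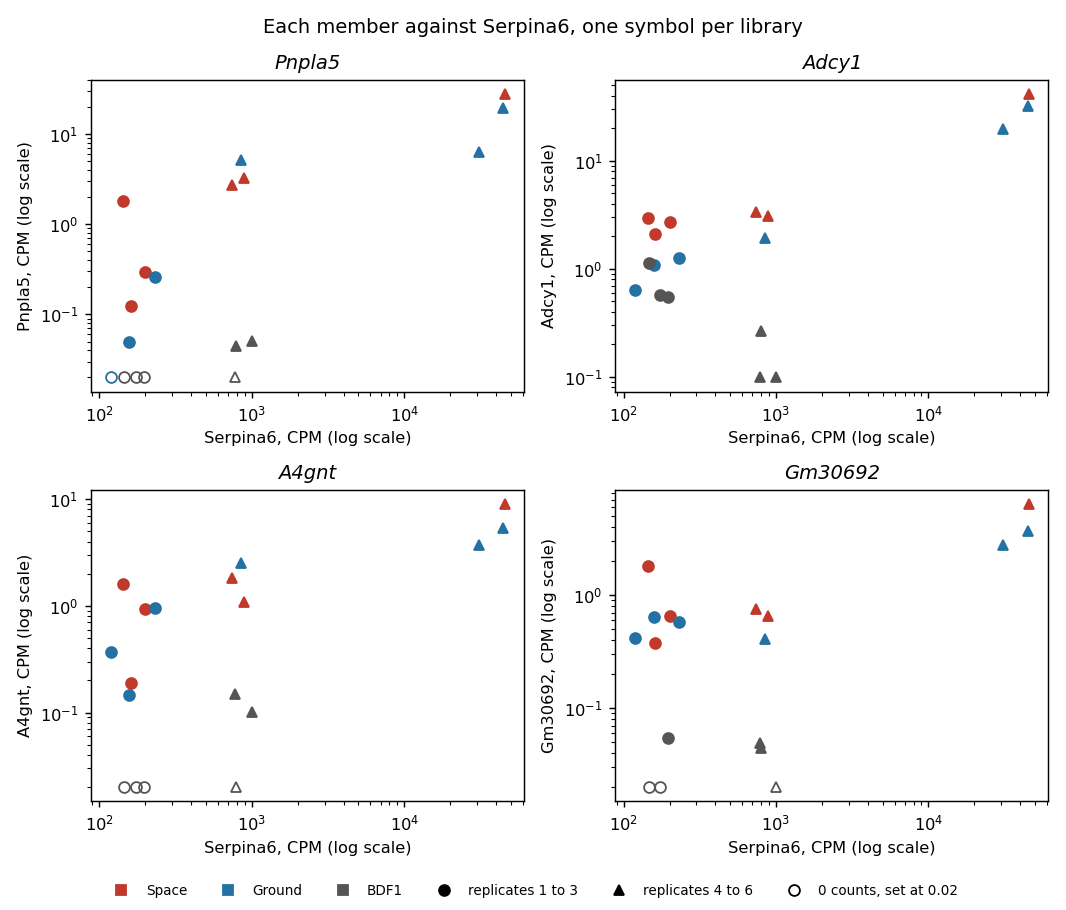
CPM of Pnpla5, Adcy1, A4gnt and Gm30692 (vertical axes) against CPM of Serpina6 (horizontal axes), both on log scales, with 1 symbol per library coloured by group, circles for replicates 1 to 3, triangles for 4 to 6 and open symbols for 0 counts, set at 0.02. The 3 livers at 30906 to 45519 CPM of Serpina6 are the highest for every member, while most pups at 118 to 231 CPM of Serpina6 lie above the controls at that level, with overlap in Ground pups for Pnpla5 and Adcy1.

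The genes whose pattern was most like that of Serpina6 were taken by Pearson's r of log2 CPM. Over 18 libraries the 10 closest, with r from 0.98 to 0.96, were F7, Dnah11, F10, Tmem97, Spp2, Cd59a, Zfp292, Prlr, Ahsg and Vnn3. F7 and F10 encode coagulation factors, Ahsg fetuin-A and Prlr the prolactin receptor. Within numbers 4 to 6 the 10 closest, with r of at least 0.98, were Peg3, Ghr, Prlr, Neb, Atg12, Tmem191c, Asgr2, Rogdi, E2f8 and Asgr1. Ghr encodes the growth hormone receptor, Asgr1 and Asgr2 the subunits of the asialoglycoprotein receptor, and Peg3 is an imprinted gene expressed from the paternal allele.

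In Space pup 4 and Ground pups 5 and 6, Prlr was at 2806 to 4013 CPM. It was at 408 to 478 CPM in the other 3 pups numbered 4 to 6 and at 353 to 370 CPM in the BDF1 mice of these numbers. Ghr was at 2321 to 4082, 433 to 450 and 424 to 456 CPM in the same 3 sets. Peg3 was at 212 to 256, 10.0 to 13.3 and 10.8 to 15.6 CPM. F7 was at 386 to 541, 161 to 189 and 150 to 170 CPM. These 4 genes separated the same 3 livers from the rest, with the gap widest for Peg3. They were picked for their likeness to Serpina6, so this separation was largely set by the choice. Prlr and F7 resembled Serpina6 further in being lower in all 9 libraries numbered 1 to 3 (32.2 to 120 CPM and 87.8 to 128 CPM) than in all 9 numbered 4 to 6. Peg3 had this order in the pups, at 4.42 to 8.69 CPM in numbers 1 to 3, but not in BDF1 mice, where numbers 1 to 3 were at 11.7 to 20.98 CPM. Ghr did not have it, at 499 to 635 CPM in pups numbered 1 to 3.

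**Figure D4:**
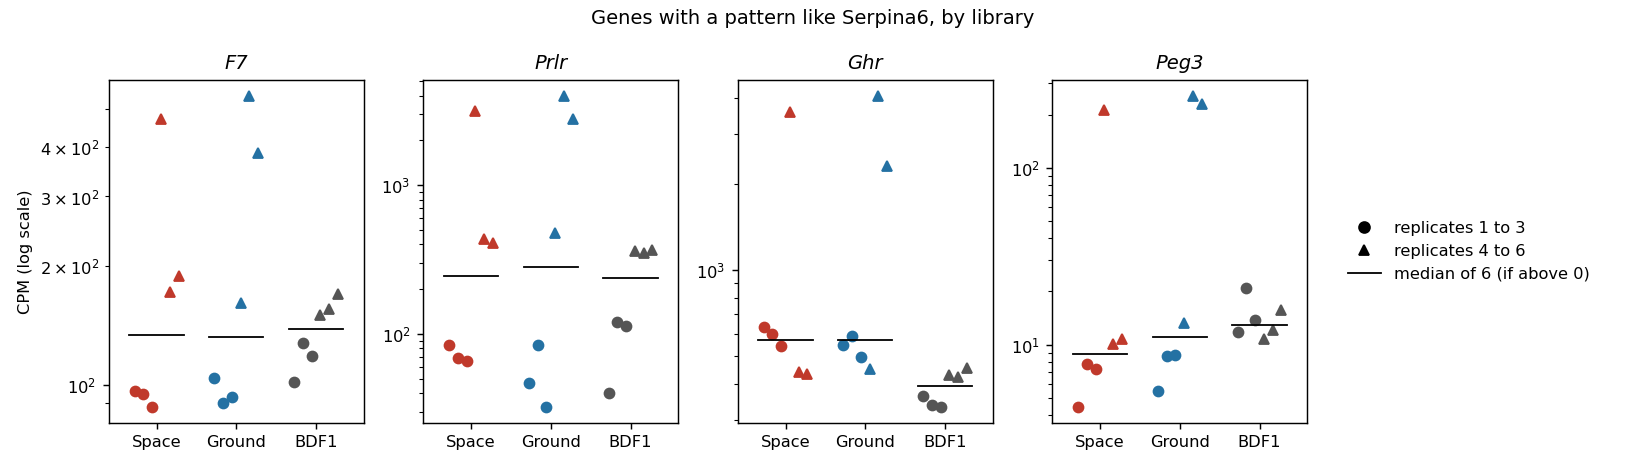
CPM of F7, Prlr, Ghr and Peg3 (vertical axes, log scales) by group, with circles for replicates 1 to 3, triangles for replicates 4 to 6 and lines for medians of 6. For each gene the Space triangle and both Ground triangles at the top are Space replicate 4 and Ground replicates 5 and 6, at 386 CPM or more for F7, 2806 for Prlr, 2321 for Ghr and 212 for Peg3.

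The nearest tested gene on each side of each member gave 10 neighbours, of which Tcim was called in both pup groups and the other 9 in neither, where 3.8% of all genes were called in Space and 3.81% in Ground pups. Tcim lies 20.2 kb from Gm30692 on the opposite strand and encodes a small regulator of transcription and immune response. It was at 87.7, 78.9, 93.7, 72.1, 11.3 and 14.1 CPM in Space pups 1 to 6. It was at 47.5, 72.6, 24.4, 9.49, 44.0 and 56.4 CPM in Ground pups. In BDF1 mice it was at 4.49 to 7.81 CPM, with a median of 5.77, below every pup. The log2 change was 3.34 in Space (SE 0.53, edgeR adjusted p 0.00252) and 2.85 in Ground pups (SE 0.52, adjusted p 0.00872). The call held in every fit that left out a single library, and it was lost in numbers 4 to 6 alone, at 2.39 (adjusted p 0.106) and 2.57 (adjusted p 0.0737). The pups lowest in Tcim were Space pups 5 and 6 and Ground pup 4, whose Serpina6 was near control level, while pups numbered 1 to 3 were at 24.4 to 93.7 CPM.

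Pnpla3, a paralogue of Pnpla5 that lies 44.7 kb away and encodes a lipase of lipid droplets, was at 4.42, 0.938, 4.16, 48.1, 5.52 and 7.13 CPM in Space pups. In Ground pups it was at 0.0979, 2.05, 0.105, 5.78, 23.5 and 6.90 CPM. BDF1 mice were at 0 to 2.01 CPM. Space pup 4 and Ground pup 5 were thus the highest for Pnpla3 as for Pnpla5. The log2 change was 4.18 in Space (SE 1.22, edgeR adjusted p 0.0623) and 3.31 in Ground pups (SE 1.20, adjusted p 0.125), neither past the threshold. With the replicate number as a block Space passed, at 4.53 (edgeR adjusted p 0.0176), as it did in numbers 1 to 3 alone, at 5.11 (adjusted p 0.0311). Without Space replicate 4 the Space value was 2.79 (edgeR adjusted p 0.201), and without Ground replicate 5 the Ground value was 2.196 (adjusted p 0.309). The fit with the block called 3.56% of genes higher and 2.47% lower in Space pups and 3.2% higher and 3.36% lower in Ground pups.

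Igfbp1, which encodes a carrier of insulin-like growth factors, lies 19.3 kb from Adcy1. Its fitted log2 value was 1.31 in Space (SE 0.57, edgeR adjusted p 0.195) and 1.55 in Ground pups (SE 0.57, adjusted p 0.129), and with the replicate block Ground passed, at 1.68 (adjusted p 0.0461). In contrast to Adcy1, it was higher in pups numbered 1 to 3 (90.3 to 203 CPM) than in most of those numbered 4 to 6 (21.6 to 96.9 CPM). Within numbers 4 to 6 it was, like Adcy1, higher in the 3 livers high in Serpina6 (70.4 to 96.9 CPM) than in the other 3 pups (21.6 to 29.2 CPM). Serpina6 is flanked by its relatives Serpina10, at 15.2 kb, and Serpina1b, at 70.9 kb. Serpina1b, an alpha-1-antitrypsin gene, was at 9034 to 9964 CPM in the 3 livers high in Serpina6 and at 3016 to 5351 CPM in the other 15. Serpina10, which encodes an inhibitor of coagulation factor X, was at 384 to 432 CPM in the same 3 livers and at 161 to 307 CPM in the others. Both flanking genes were thus highest in the same livers as Serpina6, by a smaller factor.

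**Figure D5:**
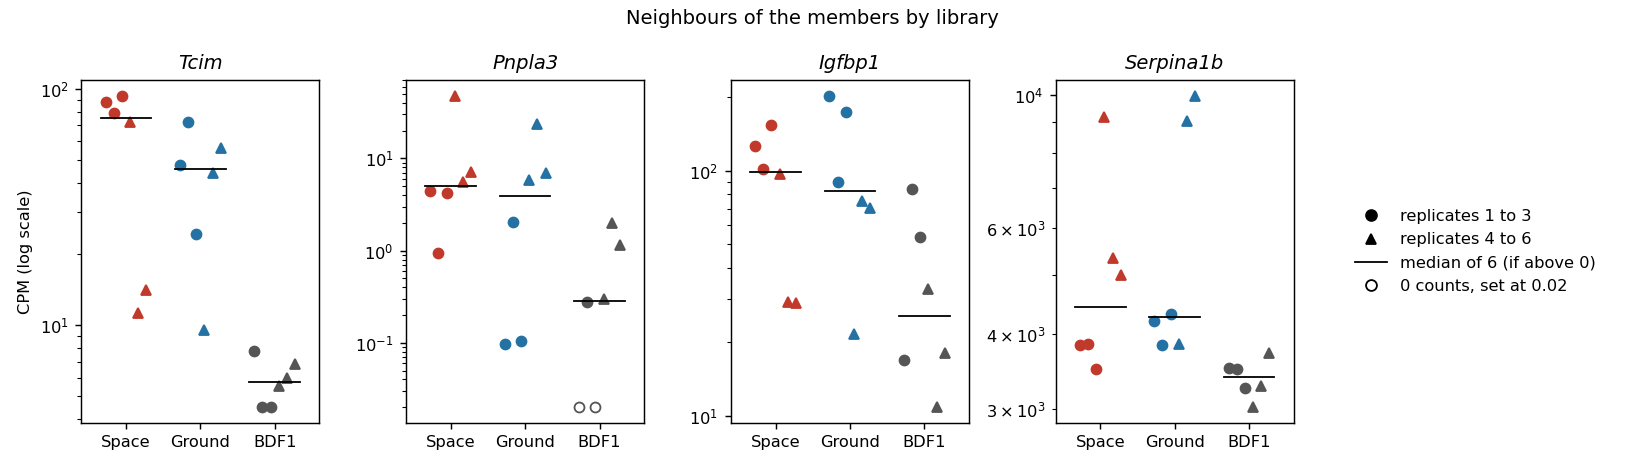
CPM of Tcim, Pnpla3, Igfbp1 and Serpina1b (vertical axes, log scales) by group, with circles for replicates 1 to 3, triangles for replicates 4 to 6, lines for medians of 6 and open circles for 0 counts, set at 0.02. All pups lie above all BDF1 mice for Tcim (9.49 CPM or more against 7.81 CPM or less), whereas for Pnpla3 Space replicate 2 and Ground replicates 1 and 3 are among the controls.

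Other genes of the members' pathways were counted from lists, beside the share of all genes called. In Space pups 2.34% of all genes were called higher and 1.46% lower, and in Ground pups 1.76% higher and 2.05% lower. Of 15 tested genes of the Serpina cluster other than Serpina6, none was called in either group. Their median log2 change was 0.32 in Space and 0.49 in Ground pups, against 0.00 and 0.02 over all genes. With the replicate block Serpina12, which encodes the adipokine vaspin, was called higher in both. Another cluster gene, Serpina16, named after its values were seen, did not pass the count filter and so was neither tested nor ranked for its likeness to Serpina6. It had 274 counts in Space replicate 4, 449 in Ground replicate 5 and 225 in Ground replicate 6 (21.5, 29.5 and 15.5 CPM), 1 count in Ground replicate 4 and none in the other 14 libraries, so that its counts lay almost wholly in the 3 livers high in Serpina6. Of 15 tested plasma carrier proteins 1 was called higher and none lower in each group. It was Apoa1, the main protein of high-density lipoprotein, at 1.01 in Space (SE 0.25, edgeR adjusted p 0.0335) and 0.94 in Ground pups (SE 0.25, adjusted p 0.0460). That call was lost in 7 and 13 of the 18 fits that each left out 1 library, where the highest adjusted p was 0.0871 and 0.110, and with the replicate block in both groups (edgeR adjusted p 0.0511 and 0.0737). In numbers 1 to 3 Apoa1 was at 9340 to 11080 CPM in Space pups and 6985 to 9156 CPM in BDF1 mice. Ground pups, at 7990 to 9646 CPM, overlapped these controls.

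Of 26 tested genes of the glucocorticoid receptor, of glucocorticoid metabolism and of the response, none was called in Space and 2 were called higher in Ground pups. These were Fkbp5, a receptor co-chaperone induced by glucocorticoids, with 1.93 on the log2 scale (SE 0.51, edgeR adjusted p 0.0442), and Per1, a clock gene that glucocorticoids also induce, at 2.21 (SE 0.54, adjusted p 0.0344). Their Space values were 1.61 (adjusted p 0.0807) and 1.91 (adjusted p 0.0537). Fkbp5 was at 88.2 to 240 CPM in all 6 pups numbered 4 to 6 and at 26.8 to 33.5 CPM in the BDF1 mice of these numbers, which did not overlap. Within the pups it was highest in the 3 livers high in Serpina6, at 211 to 240 CPM, and at 88.2 to 134 CPM in the other 3, whose Serpina6 was near control level. The call of Fkbp5 in Ground pups was lost in 13 of the 18 fits without 1 library and that of Per1 in 7, with adjusted p up to 0.105 and 0.0798. The median of the list was 0.22 in Space and 0.33 in Ground pups.

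Within numbers 4 to 6 alone, 5 of the 26 glucocorticoid genes were higher and 1 lower in each pup group, where 2.49% and 3.64% of all genes were higher and 1.9% and 3.25% lower. Within numbers 1 to 3 alone 4 were higher in Space and 3 in Ground pups, with no gene lower, against 5.07% and 2.51% of all genes higher and 3.49% and 1.88% lower. Fkbp5 and Hsd11b1, the enzyme that regenerates active glucocorticoid, were among those called in numbers 4 to 6, and Per1, Tat and Tsc22d3 among those in numbers 1 to 3. The list went both ways in numbers 4 to 6. In raw counts Tdo2 was at 6408 to 12256 in the 6 pups and at 20751 to 23565 in BDF1 mice. Mt1 was at 16397 to 21453 and 2354 to 4264, while Tat, at 11070 to 29763 and 26538 to 46968, overlapped. Without the 3 libraries high in Serpina6 none of the 26 was called in either group. That fit, with its unequal sets of numbers, called 2.03% and 1.21% of all genes higher and 1.22% and 1.13% lower.

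Of 16 tested genes of the PNPLA family and fat turnover, 3 were called higher in Space pups and none in Ground pups. Scd1, the stearoyl-CoA desaturase, changed by 2.77 (SE 0.70, edgeR adjusted p 0.0359), Acaca, which makes malonyl-CoA for fatty acid synthesis, by 0.93 (SE 0.25, adjusted p 0.0450) and Pnpla7, a lysophospholipase, by 0.59 (SE 0.14, adjusted p 0.0246). Calls were lost in 8, 11 and 4 of the 18 fits without 1 library. With the replicate block those of Scd1 (edgeR adjusted p 0.0566) and Acaca (0.0517) were lost as well, while that of Pnpla7 held. Scd1 was at 694 to 1409 CPM in the 3 livers high in Pnpla5 and Serpina6 and at 4608 to 12524 CPM in the other 3 pups numbered 4 to 6, the opposite order from both members. Within numbers 1 to 3 alone 8 of the 16 were higher and 2 lower in Space pups, where 5.07% of all genes were higher and 3.49% lower. In Ground pups 1 of the 16 was higher and none lower in that fit, where 2.51% and 1.88% of all genes were. The medians were 0.69 and 0.18 in the fit of all libraries.

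Of 27 tested genes of cyclic AMP signalling other than Adcy1, 1 was higher and 2 were lower in Space pups, and 1 was lower in Ground pups. Gnas, the stimulatory G protein subunit that activates adenylyl cyclases, was higher in Space pups, by 0.46 (SE 0.11, edgeR adjusted p 0.0275). Adcy9, a cyclase of many tissues, was lower, by -0.87 (SE 0.23, adjusted p 0.0408). Adcy10, the soluble cyclase, has a mean under 1 CPM and is named only because the count is small: it was lower by -2.33 in Space (SE 0.52, edgeR adjusted p 0.0181) and -2.70 in Ground pups (SE 0.53, adjusted p 0.0144), at 0 to 0.575 CPM in pups and 0.657 to 2.19 CPM in BDF1 mice. Calls in Space pups were lost for Gnas in 4, for Adcy9 in 9 and for Adcy10 in 1 of the 18 fits without 1 library. Both cyclases called in Space pups, Adcy9 and Adcy10, were thus lower, the opposite direction from the fitted values of Adcy1. Of 16 tested O-glycan and mucin genes other than A4gnt none was called in either group, with medians of -0.12 and -0.03. With the replicate block 1, C1galt1c1, was called higher in Ground pups.

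Genes of cell division were counted beside the members as well. Of 21 tested in the fit of all libraries, all had a positive log2 change in both pup groups, and 3 were called higher in Space and 4 in Ground pups, with medians of 2.15 and 1.95. Rrm2, a subunit of ribonucleotide reductase, changed by 1.86 in Space (SE 0.29, edgeR adjusted p 0.00252) and 1.76 in Ground pups (SE 0.29, adjusted p 0.00514) and kept its call in every fit that left out a library. Mki67, a marker of cycling cells, was called in both groups, Cdk1 in Space and Top2a and Ckap2 in Ground pups. With the replicate block all 5 named genes were called in both groups, among 7 in Space and 10 in Ground pups. Without the block, calls were lost in 9 of the 18 fits without 1 library for Mki67 and 11 for Cdk1 in Space pups, and in 10, 14 and 13 for Mki67, Top2a and Ckap2 in Ground pups. Within numbers 4 to 6 alone 17 of 28 were higher in each group, where 2.49% of all genes in Space and 3.64% in Ground pups were. In numbers 1 to 3 alone 1 of 13 (Rrm2) was higher in each, where 5.07% and 2.51% of all genes were. In the fit without the 3 libraries high in Serpina6, with its unequal sets of numbers, 1 of 15 (Rrm2) was higher in each group. There 2.03% and 1.21% of all genes were higher. Mki67 did not pass in that fit, with 2.97 in Space (edgeR adjusted p 0.135) and 4.09 in Ground pups (adjusted p 0.0566). The summed level of the list was 28.3 to 181 CPM in Space and 76.4 to 126 CPM in Ground pups numbered 4 to 6, against 14.0 to 14.2 CPM in the BDF1 mice of these numbers. In the 6 pups numbered 1 to 3 it was 16.0 to 24.5 CPM, above all BDF1 mice, which were at 10.8 to 14.8 CPM. Rrm2 carried this order, and without it the sums overlapped. It gave 4.57 of 16.0 CPM in Space replicate 2 and 1.46 of 14.8 CPM in BDF1 replicate 3. Mki67 was at 9.18 to 29.5 CPM in the 3 livers high in Serpina6, and at 16.6 CPM in Ground replicate 4, above both Ground livers high in Serpina6. That pup also had the highest sum of the Ground group, 126 CPM, against 83.0 and 76.4 CPM in Ground replicates 5 and 6, whereas in the Space group replicate 4 was highest, at 181 CPM. Markers of blood cells had larger sums in pups of these numbers as well. The 6 erythroid markers summed to 102 to 723 CPM in the 6 pups and 32.3 to 87.7 CPM in the BDF1 mice, and the 6 markers of B and T lymphocytes to 2.65 to 4.6 and 2.08 to 2.26 CPM. No erythroid or lymphocyte marker was called in the fit of all libraries, and their part in the cell division values was not tested.

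Of 20 tested genes of growth hormone, prolactin and estrogen signalling, none was called in either group. With the replicate block Stat5b was called lower in Space pups. In Space pups the fitted values were 1.64 for Prlr (SE 1.16, edgeR adjusted p 0.456) and 1.41 for Ghr (SE 0.62, adjusted p 0.199), and in Ground pups 2.46 (SE 1.20, adjusted p 0.252) and 1.86 (SE 0.63, adjusted p 0.0988), although both were far higher in the 3 livers named above.

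The summed level of the 9 hepatocyte markers was 229289 to 390357 CPM in the 6 pups numbered 4 to 6 and 84192 to 102985 CPM in the 6 numbered 1 to 3, against 70942 to 108856 CPM in all BDF1 mice. Alb carried this difference: without it the other 8 markers summed to 33737 to 48818, 35322 to 43476 and 28023 to 37306 CPM in the same 3 sets. The 9 markers did not order the pups numbered 4 to 6 alike. Alb, Apoa1, Fgb and Serpina1c were higher in the 3 livers high in Serpina6 than in the other 3 without overlap, with Apoa1 at 16368 to 19740 against 9222 to 13870 CPM, Fgb at 7032 to 7771 against 5082 to 6095 CPM and Serpina1c at 2857 to 3491 against 1401 to 2154 CPM. Cps1 and Ass1, enzymes of the urea cycle, were lower without overlap, with Cps1 at 2008 to 2884 against 3444 to 4282 CPM and Ass1 at 1408 to 2567 against 2930 to 4141 CPM. Apob, Ttr and Pck1 overlapped. Alb alone was at 250897 to 341539 CPM in the 3 livers high in Serpina6, at 195157 to 216092 CPM in the other pups numbered 4 to 6 and at 57322 to 75122 CPM in BDF1 mice of these numbers. Apoa1 was the sole hepatocyte marker called in each group. The summed stomach markers, of a tissue where A4gnt is known, were at 0 to 1.15 CPM in all libraries. None passed the count filter, and the highest sum was in a BDF1 library. In each group 3 of the 5 stomach markers had no count. The markers of adrenal cortex were at 1.02 to 8.08 CPM. The markers of germ cells reached 49.0 CPM in Space replicate 6 and at most 5.17 CPM elsewhere. The 3 libraries had the lowest TMM factors named above. The part of Alb level, of cell division and of library composition in the levels of the members was not tested.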

How the data were processed

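Per the labels and series text, liver RNA of 18 mice was made into Illumina Stranded mRNA Prep libraries that the authors sequenced as paired ends. The paper's methods name a TruSeq stranded kit, single reads and another sequencer, and this conflict could not be settled here. The submitters' processing notes name bcl2fastq 2.20, cutadapt 4.6, HISAT2 2.2.1, HTSeq 2.0.2 and mm10. The strand setting of the counting is not given in the sources used here. The deposited values are raw counts per gene for 32285 genes, with no normalization by the authors.

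Groups and replicate numbers are those of the labels. After filterByExpr, 12847 genes remained, and all 18 libraries were fitted with TMM scaling and group alone in edgeR 4.0.16 (R 4.3.3), by the quasi-likelihood test with Benjamini-Hochberg adjustment. An adjusted p under 0.05 was a call. The SE of a fitted value was its size divided by the root of the F statistic. A prior count of 2 entered log2 CPM. Ratios to controls are of summed counts over summed scaled totals, with exact 95% counting intervals. Likeness was ranked over 11724 genes averaging 1 CPM or more. The fits were tested on simulated data.

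The members, gene lists and tests were chosen with earlier results of these data known. Named genes were the 5 members, up to 4 called genes per list averaging 1 CPM or more, the 10 genes closest to Serpina6, and nearest tested neighbours. Alternatives were DESeq2 1.42.0 and its size factors, total counts, other filters and thresholds, subsets by replicate number, a replicate block and leaving out each library. Leaving Serpina6 out of the totals, leaving out 3 libraries together, ratios without each pup library, and the hepatocyte sum without Alb were added after seeing the data.

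Deviations from group means of same-numbered libraries correlated at 0.231 to 0.654 over 18 pairs. In the median this was 0.487, and 0.529 for libraries with other numbers of the same set (1 to 3 or 4 to 6), and within sets the median of same-numbered pairs was -0.05. The labels name no litter or batch behind the numbers.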

Additional observations from a re-analysis of the deposited data

Results flagged for a closer look

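In each group of 6 livers, the CPM of each member was examined for a library far from the other 5, by the gap to the nearest library as a share of the group's range (Dixon's 95% limit for 6 values). Of 15 such sets, 6 had one, where chance gives about 1 in 20, or 0.75 sets. Because the members were chosen for high pup libraries, this count is a description.

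Space replicate 4 stood apart for all 5 members. For Serpina6, at 45519 CPM against 892 CPM in the next Space pup, the gap was 0.984 of the range. For Adcy1 it was 0.968 (41.6 against 3.39 CPM), for Pnpla5 0.888 (27.9 against 3.24 CPM), for A4gnt 0.813 (9.03 against 1.84 CPM) and for Gm30692 0.763 (6.44 against 1.82 CPM).

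Ground replicate 5 stood apart for Pnpla5, at 19.7 CPM against 6.28 CPM in Ground replicate 6, with a gap of 0.681 of the range. For the other 4 members Ground replicates 5 and 6 were both high. No BDF1 library stood apart for any member.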

How the results depend on the processing

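Counts of called genes moved with the processing. Between Space and Ground pups, edgeR called 0, DESeq2 30 and the fit of replicate numbers 1 to 3 alone 14, and leaving out single libraries gave 0 to 6. For Space against BDF1 the 488 calls became 1030 with DESeq2, 281 without the count filter, 774 with the replicate block, 1090 in numbers 1 to 3 alone, 106 at an adjusted p of 0.01 and 1041 at 0.10, and 231 to 593 without single libraries. For Ground against BDF1 the 489 calls became 943 with total counts, 1087 with DESeq2, 218 without the filter, 843 with the replicate block, 895 in numbers 4 to 6 alone, 304 without the 3 libraries high in Serpina6, 52 at 0.01 and 1073 at 0.10, and 141 to 667 without single libraries. Total counts made the median log2 change of all genes -0.25 in Space and -0.24 in Ground pups, where 66 of 715 and 65 of 943 calls were higher, against 301 of 488 and 226 of 489 with TMM.

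No alternative called a member between Space and Ground pups. Leaving out single libraries gave log2 changes of -4.91 to 0.30 for Serpina6, -1.66 to 1.36 for Pnpla5, -1.72 to 0.92 for Adcy1, -0.91 to 0.66 for A4gnt and -0.69 to 0.89 for Gm30692. Without the 3 libraries Serpina6 was at 0.35 and Adcy1 at 1.23. Adcy1 was also positive with total counts (0.047), with the replicate block (0.0502) and in numbers 1 to 3 alone (1.39). With the block, the fitted change of Serpina6 against BDF1 was 0.89 in Space and 2.42 in Ground pups; the cause was not tested. DESeq2 gave no adjusted p for Pnpla5, A4gnt and Gm30692 between pup groups, and Pnpla5 in numbers 1 to 3 alone and Gm30692 under the filter of 1 CPM were not among the genes tested.

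Depth limits Pnpla5, A4gnt and Gm30692 in BDF1 mice, where each library had 3 counts or fewer. It also limits Adcy1 in BDF1 replicates 4 to 6, which had 2, 6 and 2 counts.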
